A study of Mus musculus with 6 samples.

Results

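The 10 genes described here are ones through which T cells read steroid hormones, vitamins and lipid mediators, or release an opioid peptide, and they were followed in T cells sorted from mouse skin. They were chosen by symbol from the deposited table, where all 10 had a row among 15106 genes: Nr3c1, Tsc22d3, Fkbp5, Rara, Rxra, Vdr, Pparg, Ptger2, Ptger4 and Penk. The study compared 4 libraries of regulatory T cells (Tregs) with 2 libraries of effector T cells (Teffs), all from the skin of mice aged 6 weeks whose genotype is given as FOXP3-GFP, a reporter of the transcription factor that defines Tregs. The reporter was thus carried by both groups, and no treatment was named. Whether each library came from its own animals is not stated in the labels, so p-values measure only the spread among these libraries, which may be technical. Pooling of several mice into a library is not stated either.

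The members stand for several signalling routes. Nuclear receptors sit in the cell, bind a small lipid-soluble ligand such as a glucocorticoid, retinoic acid or vitamin D, and act on DNA as transcription factors, many of them paired with a retinoid X receptor. Prostaglandin E2, which skin makes in inflammation and after ultraviolet light, acts on surface receptors, among which EP2 and EP4 raise cyclic AMP in the receiving cell. Proenkephalin is a precursor that convertases cut into enkephalins, peptides that act on opioid receptors, and Tregs of mouse skin are among the immune cells known to express its gene.

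No member passed the test between Tregs and Teffs over all genes. The test was edgeR's quasi-likelihood test with Benjamini-Hochberg adjustment at 0.05. It called 0 of the 9 members that could be tested, where the share called among all 11775 tested genes was 0.0425%. At an unadjusted p under 0.05 there was 1 member, Ptger2, against 4.73% of all tested genes. Groups did not overlap for 1 of the 9, again Ptger2, with every Treg library above both Teff libraries, an order found for 5.51% of tested genes. The opposite order, every Treg below both Teffs, was found for 0 of the 9 and for 9.49% of tested genes, so that 15% did not overlap in one direction or the other. The median log2 fold change, Treg over Teff, was 0.41 over the 9 members and 0.07 over all tested genes. DESeq2, which called 1.55% of tested genes, called Ptger2 (adjusted p = 0.0323) and no other member. It gave no p-value for Vdr. In the authors' deposited table, where 0.285% of rows have a false discovery rate (FDR) under 0.05, each of the 10 members has an FDR of 1.

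Levels were set side by side as CPM, a library's counts scaled to a common total, divided by the kilobases of annotated exons. Tsc22d3 stood highest, at 427 ± 155 CPM per kilobase in Tregs (SD, n = 4) and 322 ± 96.8 in Teffs (SD, n = 2). In Tregs, Penk followed at 91.0 ± 80.2 and Nr3c1 at 88.0 ± 16.3 CPM per kilobase, and these neighbours did not differ beyond their spread. Below them by mean came Rxra (35.2 ± 17.8), Rara (21.0 ± 5.97) and Ptger4 (18.5 ± 15.6), whose Treg values overlapped. They also overlapped those of Penk, which was at 14.7 CPM per kilobase in Treg 2. Fkbp5 (7.64 ± 4.74), Ptger2 (7.51 ± 7.89) and Vdr (3.65 ± 7.04) overlapped each other too, and also Ptger4, which was at 3.26 in Treg 1. Pparg ended the order at 0.0301 ± 0.0348 CPM per kilobase, overlapping Vdr, which had no counts in 2 Tregs. The lowest Treg value of Tsc22d3, 246, lay above the highest of Penk, 199. In Teffs the order after Tsc22d3 was Nr3c1 (82.9 ± 12.6), Penk (25.6 ± 22.7), Rxra (23.1 ± 5.08), Ptger4 (22.6 ± 13.05) and Rara (17.1 ± 5.67), where the values of the last 4 overlapped, and then Fkbp5 (7.37 ± 0.810), Vdr (1.88 ± 1.59) and Ptger2 (0.166 ± 0.234). Pparg had no counts in Teffs.

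**Figure D1:**
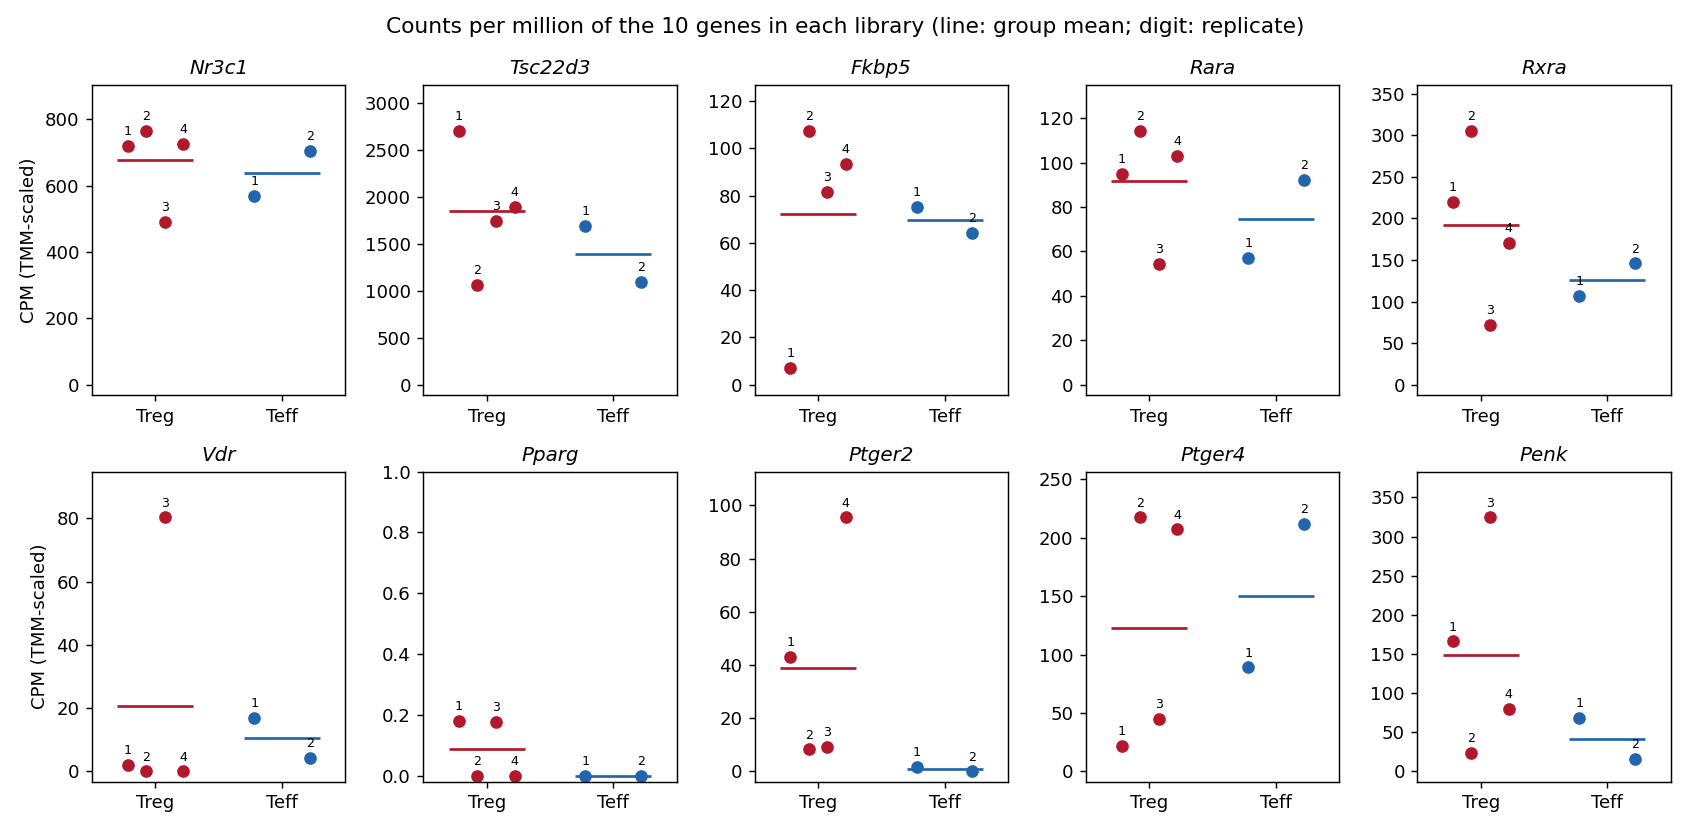
TMM-scaled CPM (y axis, linear and different in each panel) of the 10 genes in 4 Treg libraries (left, red) and 2 Teff libraries (right, blue). Points are libraries with their replicate number and lines are group means, and Ptger2 is the panel in which all Treg points, 8.32 to 95.4 CPM, lie above both Teff points.

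The libraries held 4902126 to 7468778 counts in genes, and 3 counts corresponded to 0.397 to 0.581 CPM. Genes with counts numbered 9602, 9838, 12605 and 11074 in Treg 1 to Treg 4, and 13197 and 11894 in Teff 1 and Teff 2. Treg 1 and Treg 2 thus held the fewest. Whether a count of 0 in a library reflects a gene missed in its preparation was not tested. Foxp3, the gene behind the sort, was at 103 to 233 CPM in Tregs and at 7.17 and 11.3 CPM in Teffs. Its log2 fold change was 4.19 ± 0.61 (SE), and it did not pass over all genes either (edgeR adjusted p = 0.131). A gene that separates the groups this far can thus fail the test used here. Summed over 5 Treg markers, the level was 6079 to 9398 CPM in Tregs and 213 to 334 CPM in Teffs, and the 7 T cell markers with a row came to 4398 to 8550 CPM in Tregs and 7982 to 8562 CPM in Teffs. Markers of CD8 T cells (both of 2 with a row) came to 0.180 to 65.6 CPM in Tregs and 93.6 to 142 CPM in Teffs. The 3 gamma-delta T cell markers with a row were at 0 in every Treg library and summed to 21.2 and 21.7 CPM in Teffs. Among Tregs 1 library stood apart: Treg 3 held 2998 CPM over 8 fibroblast markers and 947 CPM over 8 of 10 keratinocyte markers, where the other Treg libraries held 4.28 to 10.5 and 21.3 to 29.0 CPM. Teff 1 came next with 354 CPM of fibroblast and 144 CPM of keratinocyte markers, against 8.14 and 68.6 CPM in Teff 2. Treg 4 had the highest sum of macrophage and monocyte markers (564 CPM, of which Lyz2 made up 464 CPM). The other Tregs were at 171 to 200 CPM and Teffs at 246 to 285 CPM. Its sum of dendritic and Langerhans cell markers was also the highest (424 CPM, of which Cd209a made up 256 CPM). There the other Tregs were at 64.6 to 92.4 CPM and Teffs at 111 to 132 CPM. In such bulk libraries, fewer cells of a type and less RNA per cell cannot be told apart.

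Nr3c1, on chromosome 18 from 39410545 to 39519421 (GRCm38, minus strand), encodes the glucocorticoid receptor, which skin Tregs are known to use in hair follicle regeneration. It had 721, 766, 490 and 727 CPM across Treg 1 to Treg 4, set against 569 and 706 CPM for Teff 1 and Teff 2. Treg 3 was the lowest of the 6 libraries, and the groups overlapped. Group means were 676 ± 125 CPM in Tregs (SD, n = 4), compared to 637 ± 96.9 CPM for Teffs (SD, n = 2), a log2 fold change of 0.09 ± 0.32 (SE, edgeR adjusted p = 0.99998). The 95% interval of that difference ran from -0.66 to 0.83, or from 0.632-fold to 1.78-fold, the narrowest of the 9 members. The SD of log2(CPM + 1) among Tregs was 0.30, and 5.15% of tested genes had a lower one, with a median of 1.20 over all tested genes. Rara (0.47), Tsc22d3 (0.55) and Rxra (0.88) also lay under that median, while Penk (1.59), Ptger4 (1.63), Ptger2 (1.65), Fkbp5 (1.79) and Vdr, the most variable of them, lay over it. The adjusted p in edgeR was 0.99998 for each tested member other than Ptger2.

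Tsc22d3 (chromosome X, 140539528 to 140600659, minus strand) encodes GILZ, a leucine zipper protein that glucocorticoids induce and that restrains NF-kB and AP-1. Libraries Treg 1 to Treg 4 had 2709, 1067, 1742 and 1892 CPM, against 1693 and 1099 CPM in Teff 1 and Teff 2. Treg 1 was the highest library and Treg 2 the lowest. Treg over Teff, the log2 fold change was 0.41 ± 0.42 (SE), with a 95% interval from -0.57 to 1.38.

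Fkbp5 (chromosome 17, 28399094 to 28517527, minus strand) encodes FKBP51, a co-chaperone that glucocorticoids induce and that in turn lowers the receptor's affinity for hormone. Treg 1 to Treg 4 had 7.04, 108, 81.5 and 93.5 CPM, and Teff 1 and Teff 2 had 75.2 and 64.3 CPM. Treg 1, which held the most Tsc22d3, held the least Fkbp5, and the other 3 Tregs lay above both Teffs. On the log2 scale the difference was 0.05 ± 0.93 (SE, 95% interval -2.08 to 2.19), and it was 0.43 without Treg 1.

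The gene lists below include the members of their own pathway. Around the receptor, 15 of 17 machinery genes could be tested, and 0 of them passed in either direction. Their median log2 fold change was -0.16, and 0 had an unadjusted p under 0.05. Hsp90ab1, an HSP90 chaperone that holds the receptor ready for hormone, averaged 2729 ± 754 CPM in Tregs, compared to 2368 ± 142 CPM for Teffs. Ncor1, a nuclear receptor co-repressor, was at 507 ± 174 CPM against 683 ± 141 CPM. Hsd11b1, the enzyme that turns inactive 11-keto steroids back into active glucocorticoid, had 255, 200, 154 and 164 CPM across Treg 1 to Treg 4, set against 362 and 287 CPM for Teff 1 and Teff 2. All Tregs lay below both Teffs, with a log2 fold change of -0.75 ± 0.36 (SE) and an unadjusted p of 0.0689 in edgeR. Ptges3, which encodes the HSP90 co-chaperone p23, also known as cytosolic prostaglandin E synthase, was the reverse case, averaging 121 ± 16.3 CPM in Tregs, compared to 73.9 ± 3.77 CPM for Teffs (log2 fold change 0.71 ± 0.43).

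Of 18 genes known to be induced by glucocorticoids, 17 were tested and 0 passed over all genes. The log2 fold change was positive for 15 and negative for 2, Sgk1 (-0.15) and Txnip (-0.28). The median of 0.82, the value of Ddit4 with an SE of 1.68, compares with 0.07 over all tested genes. Tregs lay above both Teffs for 4 of the 17, and 3 of these had an unadjusted p under 0.05, where the shares over all tested genes were 5.51% and 4.73%. The gene of the 18 that was too low to test, Zbtb16, lay the other way: this zinc finger factor had 0 counts in all Tregs and 4 and 43 counts in Teff 1 and Teff 2, at least 30.2-fold higher in Teffs (against 3 counts over all Tregs), and 43 of its 47 counts were in Teff 2. Dusp1, a phosphatase that switches off MAP kinases, had 463, 2247, 579 and 1167 CPM across Treg 1 to Treg 4, set against 159 and 342 CPM for Teff 1 and Teff 2 (log2 fold change 2.15 ± 0.74, edgeR adjusted p = 0.721). Il1r2, a decoy receptor for IL-1, had 235, 218, 142 and 792 CPM across Treg 1 to Treg 4, set against 31.2 and 17.2 CPM for Teff 1 and Teff 2. Its log2 fold change was 3.84 ± 0.86 (edgeR adjusted p = 0.378), and DESeq2 called both Il1r2 (adjusted p = 2.26e-05) and Dusp1 (adjusted p = 0.0354).

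Il7r, the IL-7 receptor chain, averaged 995 ± 333 CPM in Tregs, compared to 444 ± 54.6 CPM for Teffs, a log2 fold change of 1.17 ± 0.40 (SE). Klf9, a zinc finger factor, averaged 39.4 ± 32.3 CPM, compared to 11.7 ± 2.23 CPM (log2 fold change 1.76 ± 1.19), and it, Il1r2, Il7r and Zbtb16 were picked after their values were seen. Nfkbia, the NF-kB inhibitor, averaged 1751 ± 500 CPM in Tregs, compared to 904 ± 510 CPM for Teffs, and its groups overlapped. Zfp36, which promotes decay of cytokine mRNAs, had a mean of 1363 ± 517 CPM against 1028 ± 276 CPM, with overlap as well.

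**Figure D2:**
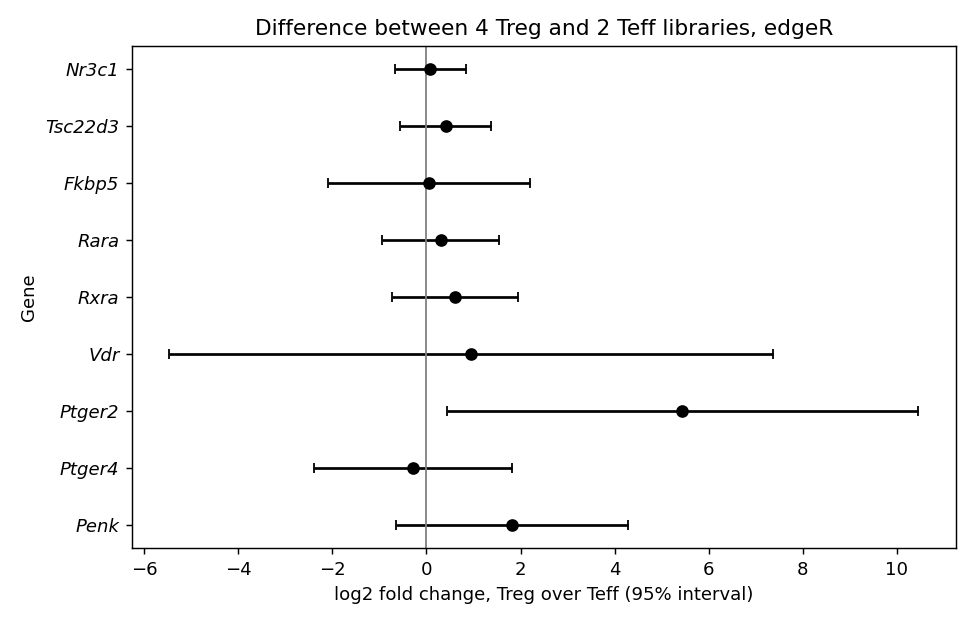
Log2 fold change, Treg over Teff, of the 9 tested members (x axis; genes down the y axis), with 95% intervals from edgeR on 4 Treg and 2 Teff libraries. Ptger2 is the gene whose interval, from 0.43 to 10.45, leaves out 0, and its adjusted p was 0.932.

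Rara (chromosome 11, 98927818 to 98974942, plus strand) encodes the retinoic acid receptor alpha, through which retinoic acid steers Treg stability and gut homing. It had 95.1, 114, 54.5 and 103 CPM across Treg 1 to Treg 4, set against 57.1 and 92.1 CPM for Teff 1 and Teff 2. The groups overlapped, with Treg 3 below both Teffs and the other 3 Tregs above them. Tregs over Teffs, the log2 difference was 0.30 ± 0.54 (SE, 95% interval -0.94 to 1.54).

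Rxra (chromosome 2, 27676440 to 27762957, plus strand) encodes retinoid X receptor alpha, the shared partner of the receptors for retinoic acid, vitamin D and fatty acids. Treg 1 to Treg 4 had 220, 306, 72.2 and 171 CPM, and Teff 1 and Teff 2 had 107 and 146 CPM. Again Treg 3 alone among Tregs lay below both Teffs, and the other 3 lay above them. As a log2 fold change the difference was 0.61 ± 0.58 (SE, 95% interval -0.73 to 1.94), and it was 0.88 without Treg 3.

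In the retinoid list 14 of 20 genes were tested, 0 passed, and the median log2 fold change was -0.40, with 6 positive and 8 negative values. Rarg, the gamma receptor, averaged 87.5 ± 28.6 CPM in Tregs, compared to 58.1 ± 10.1 CPM for Teffs. Itga4, an integrin chain of gut-homing T cells, had 35.0, 0, 0.351 and 25.5 CPM across Treg 1 to Treg 4, set against 50.2 and 21.3 CPM for Teff 1 and Teff 2. Crabp1, a cytosolic retinoic acid binding protein, reached 166 CPM in Treg 3 and, among Teffs, 145 CPM in Teff 1, and no other library exceeded 7.56 CPM. Those libraries are the ones highest in fibroblast markers, and their part in the Crabp1 values was not tested.

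Vdr (chromosome 15, 97854425 to 97910630, minus strand) encodes the vitamin D receptor, which skin keratinocytes also express and activated T cells induce. It had 2.16, 0, 80.3 and 0 CPM across Treg 1 to Treg 4, set against 16.9 and 4.26 CPM for Teff 1 and Teff 2. Reads were found in 2 of 4 Treg and both Teff libraries. By counting error alone, a count of 0 allows up to 0.480 CPM in Treg 2 and 0.428 CPM in Treg 4. The log2 fold change was 0.96 ± 2.78 (SE, 95% interval -5.46 to 7.37), and 96.4% of tested genes had a lower SD among Tregs. Without Treg 3, highest in markers of both fibroblasts and keratinocytes, the log2 fold change turned to -3.83. The libraries followed the same order in Vdr as in keratinocyte markers at the top, Treg 3, then Teff 1, then Teff 2, and the part of such cells in the Vdr values was not tested.

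**Figure D3:**
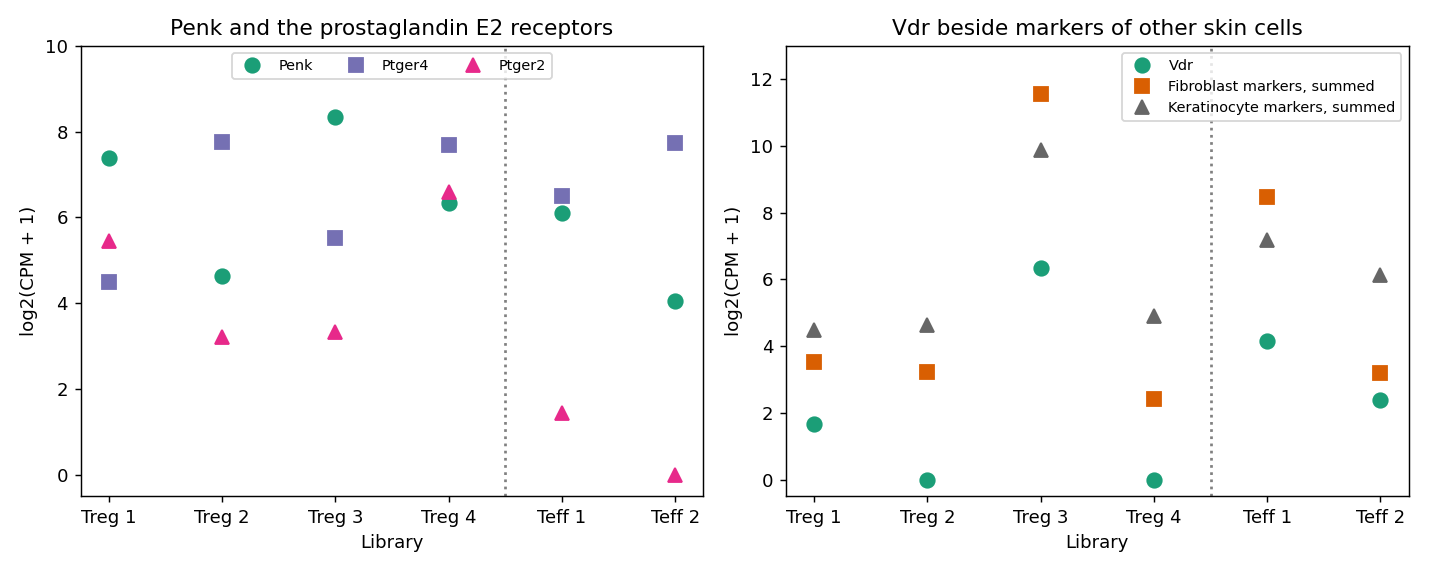
log2(CPM + 1) (y axes) in each library (x axes, 4 Tregs left of the dotted line, 2 Teffs right) of Penk, Ptger4 and Ptger2 (left panel) and of Vdr with the summed fibroblast and keratinocyte markers (right panel). Penk is highest and Ptger4 low in Treg 1 and Treg 3, and Vdr is highest in Treg 3 (80.3 CPM), where both marker sums are highest.

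The vitamin D list gave 5 tested genes of 9, of which 0 passed, with a median log2 fold change of 0.61. Lgmn, the lysosomal protease legumain, had 166, 118, 61.0 and 192 CPM across Treg 1 to Treg 4, set against 5.96 and 0.775 CPM for Teff 1 and Teff 2. All Tregs lay above both Teffs, with a log2 fold change of 5.29 ± 1.06 (SE, edgeR adjusted p = 0.283), and DESeq2 called it (adjusted p = 3.27e-07). Pdia3, a disulphide isomerase also described as a membrane receptor for vitamin D, averaged 133 ± 50.2 CPM in Tregs, compared to 200 ± 56.8 CPM for Teffs. Cyp27a1, a sterol 27-hydroxylase, had 27.6, 0, 0 and 2.43 CPM across Treg 1 to Treg 4, set against 6.22 and 24.2 CPM for Teff 1 and Teff 2.

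Pparg (chromosome 6, 115360951 to 115490399, plus strand) encodes the fatty acid sensor that defines Tregs of visceral fat. In these skin libraries it had 1, 0, 1 and 0 counts in Treg 1 to Treg 4 and 0 counts in both Teffs, so it was too low to test. At 3 counts the detection floor was 0.428 to 0.541 CPM in Tregs and 0.397 to 0.581 CPM in Teffs, and a lower level was not detectable at this depth. In the PPAR list 10 of 16 genes were tested, 0 passed, and the median log2 fold change was 0.47.

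Plin2, a lipid droplet coat protein, had 110, 31.0, 121 and 102 CPM across Treg 1 to Treg 4, set against 28.2 and 13.4 CPM for Teff 1 and Teff 2. All Tregs lay above both Teffs (log2 fold change 2.13 ± 0.79, edgeR adjusted p = 0.823). Cpt1a, which brings fatty acids into mitochondria, averaged 70.6 ± 41.2 CPM in Tregs, compared to 106 ± 89.8 CPM for Teffs. Acadl, an acyl-CoA dehydrogenase, was at 58.8 ± 29.0 CPM against 44.1 ± 11.4 CPM, and both overlapped between groups.

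The receptors EP2 and EP4 answer to the same ligand, prostaglandin E2, and gave unlike patterns, so the sequence before each gene's start is shown. The windows are from RefSeq on GRCm38.p6, 250 bases before to 50 after the start annotated there. Capitals mark the GC box GGGCGG on either strand. For Ptger2 the GENCODE start given below, 44988195, lies past the end of this window, so the 2 annotations differ. RefSeq windows were found for 8 of the 10 members. None was found for Penk or Nr3c1, so the sequence before these genes was not searched.
Ptger2 (chr14:44987861-44988160, plus strand): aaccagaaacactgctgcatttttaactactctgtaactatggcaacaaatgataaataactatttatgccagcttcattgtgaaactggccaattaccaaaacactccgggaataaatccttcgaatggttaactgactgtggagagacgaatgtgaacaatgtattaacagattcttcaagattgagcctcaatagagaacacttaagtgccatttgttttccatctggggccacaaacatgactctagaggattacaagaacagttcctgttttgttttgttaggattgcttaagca
Ptger4 (chr15:5244138-5244437, minus strand): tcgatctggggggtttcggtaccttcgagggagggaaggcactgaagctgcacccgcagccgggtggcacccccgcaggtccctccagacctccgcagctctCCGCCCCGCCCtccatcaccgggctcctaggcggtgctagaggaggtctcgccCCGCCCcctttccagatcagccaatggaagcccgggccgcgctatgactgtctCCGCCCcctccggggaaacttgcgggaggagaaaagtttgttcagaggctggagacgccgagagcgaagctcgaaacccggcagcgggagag
The Ptger2 window holds 0 GC boxes, 3 CG dinucleotides and 37.7% G and C. The Ptger4 window holds 4 GC boxes, of which 2 overlap, 25 CG dinucleotides and 67.0% G and C. Among 32817 windows of the same length the median was 52.7% G and C, and 35.6% held the GC box. Neither window held the core TGACG of the cyclic AMP response element on either strand, which 20.8% of all windows held. Of the other members with a window, Rara and Tsc22d3 held TGACG in some of theirs. The full cyclic AMP element TGACGTCA, held by 1.79% of all windows, was in no window of the 8 members on either strand. Penk is not among these 8. These matches describe letters and do not say which factor binds.

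Ptger2 (chromosome 14, 44988195 to 45003820, plus strand) encodes EP2. It had 43.1, 8.32, 9.12 and 95.4 CPM across Treg 1 to Treg 4, against 1.72 CPM in Teff 1 and 0 CPM in Teff 2. These are 239, 52, 52 and 669 counts in Tregs and 13 and 0 counts in Teffs. By counting error alone, a count of 0 allows up to 0.581 CPM in Teff 2. Every Treg library lay above both Teffs, with Treg 4 and Treg 1 well above Treg 2 and Treg 3. Means were 39.0 ± 41.0 CPM in Tregs (SD, n = 4), compared to 0.861 ± 1.22 CPM for Teffs (SD, n = 2), a log2 fold change of 5.44 ± 2.17 (SE, edgeR unadjusted p = 0.0366, adjusted p = 0.932).

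The Ptger2 value stayed at 4.48 to 5.78 with any single library left out other than Teff 1. Teff 1 carries all Teff counts of the gene, and against Teff 2 alone pooled Tregs were at least 71.0-fold higher, computed against 3 counts in that library. Treg 4 held 669 of the 1012 Treg counts, and without it the bound was 33.7-fold. Taken singly, Treg 2 and Treg 3 gave bounds of 14.3-fold and 15.7-fold. All these bounds leave out Teff 1, which was at 1.72 CPM where Treg 2 and Treg 3 were at 8.32 and 9.12 CPM. With both Teffs in the fit, the 95% interval ran from 1.35-fold to 1398-fold. The highest Treg library in Ptger2, Treg 4, was also the highest in summed macrophage and dendritic markers (564 and 424 CPM). Of these sums, Lyz2 made up 464 CPM and Cd209a 256 CPM. Treg 1, with 43.1 CPM of Ptger2, had lower sums (171 and 92.4 CPM) than either Teff library. The Teff sums were 246 to 285 CPM and 111 to 132 CPM. Single macrophage markers differed in this. Lyz2 followed the sum, at 66.9 CPM in Treg 1 against 186 and 136 CPM in Teffs. Csf1r did not, at 78.1 CPM in Treg 1, 0.713 CPM in Treg 4 and 31.6 and 15.9 CPM in Teffs. The part of those cells in the Ptger2 values was not tested. Exons of antisense gene models overlap 4.74% of its exonic bases, and no source used here gives the strand setting of the counting.

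Ptger4 (chromosome 15, 5206661 to 5244187, minus strand) encodes EP4. Treg 1 to Treg 4 had 21.6, 217, 44.7 and 207 CPM, and Teff 1 and Teff 2 had 89.1 and 212 CPM. Treg 2, Treg 4 and Teff 2 formed a high set of nearly equal values, and Treg 1 and Treg 3 lay below both Teffs. The mean was 123 ± 104 CPM in Tregs, compared to 150 ± 86.8 CPM for Teffs, a log2 fold change of -0.29 ± 0.91 (SE, 95% interval -2.39 to 1.81). The sign was positive without Teff 2 (0.45) and without Treg 1 (0.06). Exons of genes on the opposite strand overlap 16.5% of its exonic bases.

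Of 9 prostanoid receptor genes 7 were tested, and 0 passed, with a median log2 fold change of -0.29. Ptger1, the EP1 receptor, averaged 38.2 ± 37.0 CPM in Tregs, compared to 36.7 ± 22.7 CPM for Teffs. Ptgir, the prostacyclin receptor, was at 19.1 ± 16.1 CPM against 17.4 ± 10.3 CPM. Ptgdr2, the receptor CRTH2 of type 2 lymphocytes, had 0, 0, 3.51 and 0 CPM across Treg 1 to Treg 4, set against 8.74 and 19.2 CPM for Teff 1 and Teff 2, so that all Tregs lay below both Teffs (log2 fold change -3.97 ± 2.63). All 20 Treg counts were in Treg 3. The fitted value ranged over -9.46 to -3.38 with 1 library left out, the lowest being without Treg 3. That lowest value rests on 0 Treg counts, so its size is not a measured fold.

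Enzymes and carriers of prostaglandins gave 9 tested genes of 15, of which 0 passed, with a median log2 fold change of 0.50. Hpgd, which inactivates prostaglandin E2 and is also expressed by Tregs of other tissues in mice, had 0, 0, 140 and 2.71 CPM across Treg 1 to Treg 4, set against 88.4 and 1.36 CPM for Teff 1 and Teff 2. As for Crabp1, the libraries with reads in number were Treg 3 and Teff 1, highest in fibroblast markers, and the part of those cells was not tested. Ptgr2, a prostaglandin reductase, averaged 41.3 ± 33.6 CPM in Tregs, compared to 29.1 ± 11.6 CPM for Teffs. Pla2g4a, the phospholipase that frees arachidonic acid, had 20.7, 0, 1.93 and 1.14 CPM across Treg 1 to Treg 4 and 0 counts in Teffs. The groups overlapped, since Treg 2 was at 0 too. Pooled over Tregs it was at least 23.2-fold higher, against 3 counts over both Teffs, but 115 of its 134 counts were in Treg 1, and without that library the bound was 4.25-fold.

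Genes that make, carry or break down the cyclic AMP signal lay on both sides of 0. Of 15 tested genes 0 passed over all genes, 6 had an unadjusted p under 0.05, and groups did not overlap for 7, with 3 higher and 4 lower in Tregs, where these shares over all tested genes were 4.73% and 15%. The median log2 fold change was 0.44. Crem, whose products include the cyclic AMP-induced repressor ICER, had 692, 576, 580 and 810 CPM across Treg 1 to Treg 4, set against 169 and 175 CPM for Teff 1 and Teff 2. Every Treg library had 576 CPM or more and the Teffs nearly equal values. Its log2 fold change was 1.95 ± 0.34 (SE, edgeR unadjusted p = 0.00044, adjusted p = 0.217), and DESeq2 called it (adjusted p = 9.11e-08).

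Phosphodiesterases, which break down cyclic AMP, lay on both sides. Pde4d had 120, 303, 148 and 167 CPM across Treg 1 to Treg 4, set against 52.4 and 62.6 CPM for Teff 1 and Teff 2 (log2 fold change 1.68 ± 0.52). Pde7a had 0, 0.8, 8.06 and 50.5 CPM across Treg 1 to Treg 4, set against 208 and 382 CPM for Teff 1 and Teff 2 (log2 fold change -4.31 ± 1.68). Pde3b was likewise lower, at 4.76 ± 7.43 CPM in Tregs, compared to 63.2 ± 8.53 CPM for Teffs.

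Adcy7, an adenylyl cyclase of immune cells, averaged 213 ± 29.7 CPM in Tregs, compared to 375 ± 58.8 CPM for Teffs (log2 fold change -0.82 ± 0.32). Prkacb, a catalytic subunit of protein kinase A, averaged 210 ± 67.3 CPM, compared to 460 ± 81.7 CPM (log2 fold change -1.13 ± 0.39). Rapgef3, which encodes the cyclic AMP sensor EPAC1, had 5, 12, 94 and 127 counts across Treg 1 to Treg 4, or 0.902, 1.92, 16.5 and 18.1 CPM, and 0 counts in Teffs. Pooled over Tregs it was at least 41.2-fold higher, against 3 counts over both Teffs. The bound was 26.9-fold without Treg 4, and 6.11-fold without Treg 3 and Treg 4. Those are the libraries highest in summed fibroblast and in summed macrophage markers, and the part of such cells was not tested. The anchoring protein gene Akap13 (1124 ± 219 CPM in Tregs, 863 ± 245 CPM in Teffs) and the regulatory subunit gene Prkar1a (827 ± 330 CPM, 501 ± 163 CPM) overlapped between groups. Akap13, Prkar1a and Crem were taken by their mean level, and the other 6 genes of this list were picked after their values were seen. The adjusted p in edgeR of each of these was 0.217 or above.

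**Figure D4:**
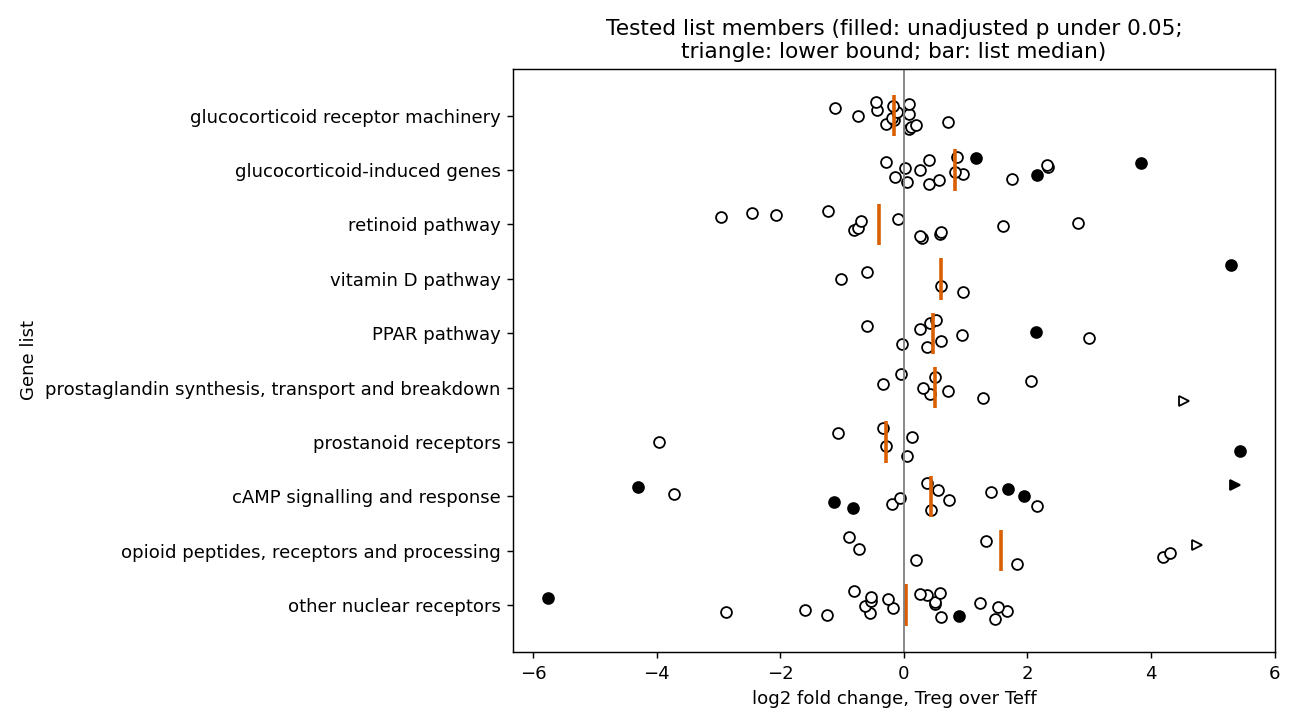
Log2 fold change, Treg over Teff, of each tested gene (x axis) in 10 gene lists (y axis). Filled points had an unadjusted p under 0.05 in edgeR, triangles are lower bounds for 3 genes with no counts in Teffs, and orange bars are list medians, the highest being 1.58 in the opioid list and the lowest -0.40 in the retinoid list.

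Penk (chromosome 4, 4133531 to 4138819, minus strand) encodes proenkephalin. It had 166, 24.0, 324 and 79.9 CPM across Treg 1 to Treg 4, set against 68.0 and 15.7 CPM for Teff 1 and Teff 2, or 921, 150, 1851 and 560 counts against 514 and 81. All 6 libraries held reads, Treg 3 was the highest, and 3 of 4 Tregs lay above both Teffs while Treg 2 lay between them. Means were 149 ± 131 CPM in Tregs (SD, n = 4), compared to 41.9 ± 37.0 CPM for Teffs (SD, n = 2). The log2 fold change was 1.83 ± 1.07 (SE, edgeR unadjusted p = 0.126, adjusted p = 0.99998), with a 95% interval from -0.64 to 4.29. In the authors' deposited table it is 1.75, with a p-value of 0.104.

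The Penk value ranged over 1.08 to 3.22 when any single library was left out. Without Treg 3, the library highest in fibroblast and keratinocyte markers, it was 1.12, without Teff 1 it was 3.22 and without Teff 2 it was 1.08. Treg 1, with 10.5 CPM of fibroblast markers, held 166 CPM of Penk, and Teff 1, with 354 CPM of them, held 68.0 CPM, and the part of fibroblasts in the Penk values was not tested. Exons of a gene model on the opposite strand overlap 14.3% of its exonic bases.

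Penk and Ptger4 were arranged in opposite ways over the libraries. Treg 1 and Treg 3 were the highest libraries in Penk and the lowest in Ptger4, and Treg 2 and Teff 2 were the lowest in Penk and the highest in Ptger4. This is a description of 6 libraries and was not tested.

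The 5 genes whose log2(CPM + 1), centred over the 6 libraries, lay closest to that of Penk were Maged1, Dusp3, Frmd6, Lap3 and Ppp1r3b, out of 5768 genes of at least median level. Their root mean square differences from Penk were 0.43 to 0.59 on the log2 scale. Maged1 had 162, 26.4, 247 and 55.2 CPM across Treg 1 to Treg 4, set against 73.3 and 28.3 CPM for Teff 1 and Teff 2. Treg 3 and Treg 1 led and Treg 2 was the lowest, as for Penk among Tregs. All 5 genes were chosen for likeness to Penk over these 6 libraries, so a shared order and sign follow from the choice. For all 5 of them the groups overlapped, and their log2 fold changes, 0.999 to 2.12, did not pass in edgeR (unadjusted p of 0.0810 or above).

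In the list of opioid peptides, receptors and processing enzymes 8 of 15 genes were tested, Penk among them, and 0 passed. The median log2 fold change was 1.58, and 0 had an unadjusted p under 0.05. Tregs lay above both Teffs for 1 and below both for 1, where the shares over all tested genes were 5.51% and 9.49%. Pcsk1, a prohormone convertase that cuts proenkephalin in neuroendocrine cells, had 175, 7.36, 62.4 and 83.9 CPM across Treg 1 to Treg 4, set against 8.21 and 0 CPM for Teff 1 and Teff 2. Treg 2, the lowest Treg in Penk, was also the lowest in Pcsk1 and lay below Teff 1. The log2 fold change was 4.30 ± 1.93 (SE, edgeR unadjusted p = 0.0561, adjusted p = 0.99998). All 62 Teff counts were in Teff 1. The fitted value ranged over 3.31 to 11.94 with 1 library left out, the highest being without Teff 1. That highest value rests on 0 Teff counts, so its size is not a measured fold. Furin, a convertase of the secretory route in most cells, averaged 43.9 ± 29.8 CPM in Tregs, compared to 72.2 ± 5.13 CPM for Teffs.

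Dpp3, a peptidase that breaks down enkephalins, had 74.7, 73.9, 44.2 and 56.2 CPM across Treg 1 to Treg 4, set against 145 and 85.3 CPM for Teff 1 and Teff 2. All Tregs lay below both Teffs (log2 fold change -0.88 ± 0.52). Oprm1, the mu opioid receptor gene, was low, at 5.29 ± 4.09 CPM in Tregs, compared to 0.265 ± 0.374 CPM for Teffs. All Tregs lay above both Teffs (log2 fold change 4.19 ± 2.48), and Teff 1 held all 4 Teff counts. Without Teff 1 the fitted value was 7.98, but it rests on 0 Teff counts, so its size is not a measured fold. Cpe, a carboxypeptidase that trims peptide hormones, had 0 counts in both Teffs and had 0, 0, 22.8 and 3.57 CPM across Treg 1 to Treg 4, with groups that overlapped. Pooled over Tregs it was at least 26.8-fold higher, against 3 counts over both Teffs, and without Treg 3, which held 130 of its 155 counts and the most fibroblast markers, the bound was 5.63-fold. The part of those cells in the Cpe values was not tested. Oprm1, Cpe and Pla2g4a were picked after their values were seen.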

How the data were processed

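Transcripts of 6 libraries were measured by RNA-seq after SMARTer ultra-low-input cDNA synthesis (labels' protocols). Build mm10 stands in the submitters' processing notes beside HTSeq 0.6.1, TopHat2 2.0.12, SAMtools 0.1.19.0, CASAVA 1.8.2 and Bowtie2 2.1.0.0. No source used here gives the annotation, strand setting or test behind the table. Per gene, the authors deposited raw whole-number counts, log2 fold changes with mean log2 CPM, and p-values with FDR, per the file headers; the 3 counter rows (88.0% to 90.2% of column totals) were left out of library sizes.

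The test used edgeR 4.0.16 in R 4.3.3 (limma 3.58.1): filterByExpr with a minimum count of 10, which kept 11775 genes, TMM scaling (factors 0.913 to 1.05), and the quasi-likelihood F test on group alone. CPM are on the scaled sizes. The SE is the absolute log2 fold change over the root of F. An exact permutation test of 4 against 2 libraries cannot go below p = 0.0667 (two-sided). Floors of 3 counts cover counting error only. Alternatives were DESeq2 1.42.0, other scalings and filters, libraries left out and a replicate block. Exonic lengths and positions are from GENCODE M21 (GRCm38, the assembly of mm10).

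The members and lists were chosen with earlier results of these data known. Named were all members, the 3 list genes of highest mean CPM in each list, called list genes (0), and the 5 genes most like Penk; others are marked as picked after their values were seen. No set test was run.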

Additional observations from a re-analysis of the deposited data

Results flagged for a closer look

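With 4 Treg libraries, a library was looked at again where its gap to the nearest other Treg was, as a share of the group's range, above Dixon's 95% critical value. Among 72 sets of values 19 met this, which is a description: the rate of about 1 in 20 by chance holds for independent normal values, and these include many zeros, genes picked after their values were seen and genes of related lists. Treg 3 accounted for 11 of them. It was low in Nr3c1 (490 CPM, others 721 to 766) and in the summed Treg markers (6079 CPM, others 8947 to 9398). It was high in Vdr (80.3 CPM), Crabp1 (166 CPM), Hpgd (140 CPM), Ptgdr2 (3.51 CPM) and Cpe (22.8 CPM), and in the summed markers of fibroblasts (2998 CPM), keratinocytes (947 CPM), adipocytes (193 CPM, Fabp4 alone, with Adipoq and Retn at 0 in all Tregs) and neutrophils (7.54 CPM, S100a8 alone).

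Treg 4 was high in Il1r2 (792 CPM, others 142 to 235) and in Pde7a (50.5 CPM, others 0 to 8.06). It was also high in the summed markers of macrophages and monocytes (564 CPM, Lyz2 464 CPM) and of dendritic and Langerhans cells (424 CPM, Cd209a 256 CPM). Treg 1 was high in Cyp27a1 (27.6 CPM), Pla2g4a (20.7 CPM) and Oprm1 (11.4 CPM), and Treg 2 in Nr1d1 (183 CPM, others 48.4 to 59.5).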

How the results depend on the processing

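Over 14 alternative settings, members called stayed at 0 except in DESeq2, which called 1 (Ptger2), and list genes called were 5 in DESeq2 and 1 (Pde7a) with the replicate block. Genes called over all were 5 in the main analysis, 183 in DESeq2 (140 higher, 43 lower), 19 with no filter, 15 with the replicate block, 0 to 2 with one library left out, 0 without Treg 3 and Teff 1 together (chosen after seeing the data) and 0 at an adjusted p under 0.01. The replicate block rests on Treg 1, Treg 2 and both Teffs, for which the labels give shared numbers and state no pairing. Deviations from group means correlated at -0.0123 and 0.169 for the same-numbered libraries. The highest value was 0.312, for Treg 3 with Teff 1. With 2 Teffs the deviations of one mirror those of the other, so these values cannot decide whether libraries were paired.

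Log2 fold changes, Treg over Teff, that changed sign were as follows. Upper-quartile scaling, which moved the median of all genes by -0.11, gave -0.034 for Nr3c1, -0.052 for Fkbp5 and -0.080 for Ptger1, and no scaling gave -0.0080 for Ptger1. The replicate block gave -1.32 (Fkbp5), -4.44 (Vdr), -1.69 (Ptgr2), -0.0061 (Ptger1) and -0.10 (Lap3). Without Treg 3 and Teff 1, Vdr was -2.54, Crabp1 6.93 and Ptger1 -0.32. With one library left out, ranges that crossed 0 were Nr3c1 -0.072 to 0.23, Fkbp5 -0.20 to 0.43, Rara -0.015 to 0.67, Vdr -3.83 to 2.23, Ptger4 -0.80 to 0.45, Crabp1 -4.81 to 10.98, Cyp27a1 -4.19 to 0.27, Cpt1a -1.28 to 0.70, Hpgd -5.57 to 4.66, Ptgr2 -0.027 to 0.98, Ptger1 -0.88 to 0.87 and Ptgir -0.64 to 0.90. For Crabp1 without Teff 1, the Teff side held 0 counts, so the fitted sizes there are not measured folds. The cause of the sign changes was not tested. Leaving libraries out of the lower bounds of Rapgef3, Cpe, Pla2g4a and Ptger2 was also chosen after seeing the data. Tsc22d3, Rxra, Ptger2 and Penk stayed positive throughout. With 2 Teff libraries, differences within the printed intervals were not detectable.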

Other observations

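Other nuclear receptors were spread around 0. Of 22 tested among 30, 0 passed, 11 log2 fold changes were positive and 11 negative, and the median was 0.04. Rora, a receptor for sterols that skin Tregs are known to express, had 791, 1229, 958 and 973 CPM across Treg 1 to Treg 4, set against 469 and 589 CPM for Teff 1 and Teff 2. All Tregs lay above both Teffs, with a log2 fold change of 0.90 ± 0.33 (SE, edgeR unadjusted p = 0.0251, adjusted p = 0.797). Nr4a1, an orphan receptor induced by antigen receptor signals, averaged 1991 ± 586 CPM in Tregs, compared to 1401 ± 92.8 CPM for Teffs, and Nr2c2, the testicular receptor TR4, averaged 172 ± 81.3 CPM against 121 ± 11.05 CPM, with groups that overlapped.

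Nr1d1, the clock receptor REV-ERB alpha, had 59.5, 183, 48.4 and 52.2 CPM across Treg 1 to Treg 4, set against 32.3 and 29.1 CPM for Teff 1 and Teff 2 (log2 fold change 1.48 ± 0.78). Nr6a1, an orphan receptor of germ cells, was the one that lay below in all Tregs, at 0, 0, 0.877 and 0 CPM, against 19.9 and 5.81 CPM in Teffs. Nr1d1 and Nr6a1 were picked after their values were seen.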
